A study of Mus musculus with 6 samples.

Results

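The transcripts of 9 complement genes were followed in FACS-enriched retinal cells after ONC: the C1q subunits C1qa, C1qb and C1qc, the convertase components C4b, C2 and Cfb, the central component C3, and the anaphylatoxin receptors C3ar1 and C5ar1. The genes were taken by symbol from a table of 32371 genes, and all 9 had counts and passed the filter on low counts, as did 18138 genes in all. The table held 6 RNA-Seq libraries from adult C57BL/6J mice. In both groups an AAV2 vector was injected into the vitreous, the optic nerve was crushed 2 weeks later, and living CD90.2-positive cells were sorted from the dissociated retina 3 days after the crush. The vector carried GFP in 3 libraries and Ezh2-Y726D, a form of the histone methyltransferase Ezh2 without catalytic activity, in the other 3. The sources used here do not say whether a library held the retinas of several mice or whether different libraries came from different mice, so P values measure the spread between these libraries, which may be technical. AAV2 injected in this way transduces mainly RGCs, whereas complement genes are also expressed by cells that the vector does not mainly target.

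Complement is a cascade of secreted proteins that tags cells, debris and synapses for removal. C1q, a hexamer of heterotrimers built from the products of C1qa, C1qb and C1qc, binds the target and activates the proteases C1r and C1s, which cleave C4 and C2 to form the classical C3 convertase. C3 is the step on which the classical, lectin and alternative routes converge, and factor B, the product of Cfb, supplies the protease of the alternative convertase. The small fragments C3a and C5a act on the G protein-coupled receptors encoded by C3ar1 and C5ar1. In the retina and brain C1q is made mostly by microglia, C3ar1 and C5ar1 mark microglia and other myeloid cells, and C4b and C3 can also be made by glia.

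The C1q subunits, C3 and C3ar1 were lower after Ezh2-Y726D overexpression, at 39.4% to 58.8% of their GFP levels, C5ar1 was lower by a margin that rested on few reads, and C4b did not fall. RNA levels are given as CPM, counts relative to the size of the library after scaling by edgeR's TMM method, and all P values were adjusted by the Benjamini-Hochberg method over the 18138 genes of the edgeR quasi-likelihood fit. With a threshold of 0.05 on the adjusted P, 6 of the 9 genes fell and 0 rose in edgeR, where 13.6% of all genes fell, 13.9% rose and 27.5% changed in either direction. DESeq2 called 5 as lower and 0 as higher, where it called 10.1% and 9.98% of all genes. At an unadjusted P under 0.05 in edgeR, 7 of the 9 genes were lower and 1, C4b, was higher. All 6 also changed by more than 1.5-fold, a size at which 5.5% of all genes fell and 2.52% rose. The median log2 fold change was -0.84 over the 9 genes and 0 over all genes tested. A bulk measurement cannot tell fewer cells of a type from less RNA per cell.

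**Figure D1:**
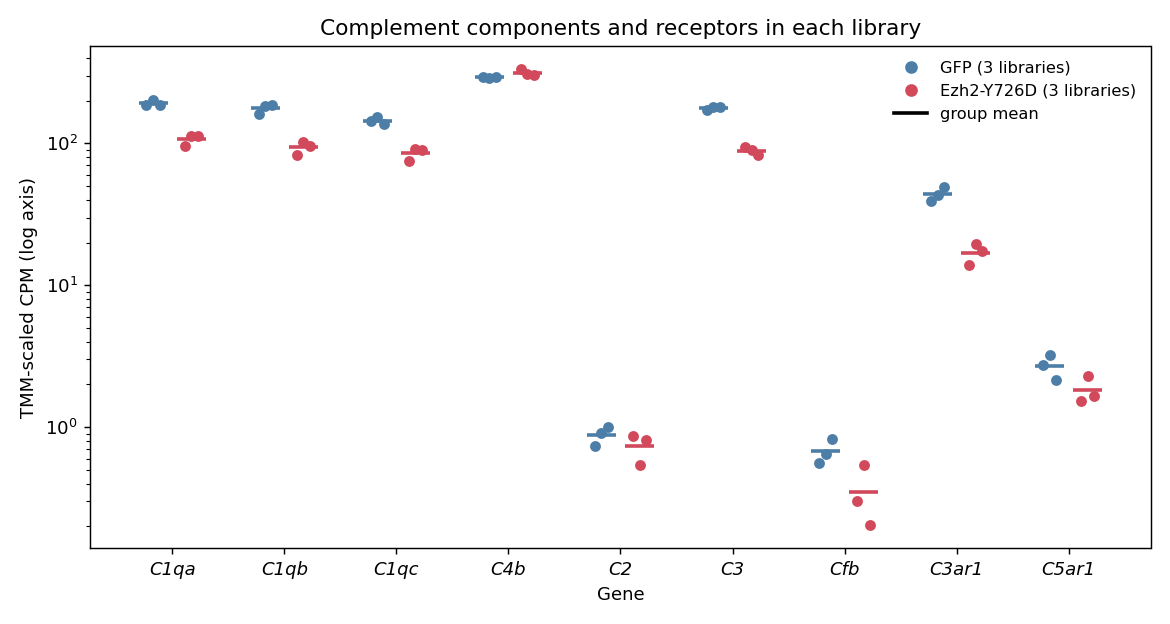
Level of each of the 9 genes in every library, as TMM-scaled CPM on a log axis. Points are libraries, 3 per group, and horizontal lines are group means. The points of the groups are apart for C1qa, C1qb, C1qc, C3, C3ar1 and Cfb, with Ezh2-Y726D below, Cfb resting on 5 to 16 counts per library, whereas the C4b points of Ezh2-Y726D lie at 303 to 336 CPM, slightly above those of GFP.

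Depth differed between libraries, at 9333244 to 22370285 counts in GFP and 18215734 to 23782520 in Ezh2-Y726D. In GFP replicates 2 and 3 the rRNA gene CT010467.1 took 50.9% and 52.2% of the counts, and 5745352 and 4460732 counts were left. With both of these libraries left out, a fit that assumes the lone GFP library to vary like the Ezh2-Y726D libraries, 5 of the 9 genes fell and 0 rose, where 10.7% of all genes fell and 10.7% rose, C5ar1 being the gene that no longer passed (adjusted P = 0.0807). Ezh2, the gene carried by the vector, was at 22.7, 23.9 and 26.4 CPM in GFP and at 65.2, 65.6 and 65.2 CPM in Ezh2-Y726D. Of 10 RGC markers all were detected, with a summed level of 490 to 503 CPM in GFP and 466 to 502 CPM in Ezh2-Y726D. The sum covers 2 markers that fell and 2 that rose in edgeR, where 13.6% of all genes fell and 13.9% rose. Genes of other retinal cells were abundant beside the RGC markers. The summed level of 6 rod genes was 5410 to 5560 CPM in GFP and 5920 to 6120 CPM in Ezh2-Y726D. For 10 genes of Müller glia and astrocytes it was 5370 to 5700 CPM in GFP and 5040 to 5300 CPM in Ezh2-Y726D, so that neither sum overlapped between the groups. Of 6 endothelial genes, Kdr and Flt1 were at 763 and 200 CPM in GFP, whereas Cldn5, Pecam1, Cdh5 and Tek were at 2.86 to 8.24 CPM.

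The genes all lie on the minus strand, the C1q genes together, C4b, Cfb and C2 together, and the others singly. C1qb (136880129 to 136886187), C1qc (136889804 to 136893065) and C1qa (136895917 to 136898803) are neighbours on chromosome 4, with 3 exons each. C4b (34728380 to 34743882), Cfb (34856374 to 34862518) and C2 (34862604 to 34898265) share a stretch of chromosome 17 with C4a, and C3 (57203970 to 57228136) lies farther along that chromosome. C3ar1 is on chromosome 6 from 122847138 to 122856161, and C5ar1 on chromosome 7 from 16246743 to 16259540. These positions follow GENCODE vM21 (GRCm38, the build in the submitters' processing notes).

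Promoters of C1qb, C1qc, C3, C3ar1 and C5ar1 were found in a RefSeq promoter table (GRCm38.p6), and the sequence upstream of the annotated start is shown for the 4 of them that fell without overlap between the groups. Each is given 5′ to 3′ on the minus strand, ending before the RefSeq start or the GENCODE first exon, whichever lies farther upstream, and capitals mark a match to any of the patterns searched. C1qb covers chr4:136886201-136886450, C1qc chr4:136893066-136893164, C3 chr17:57228137-57228386 and C3ar1 chr6:122856162-122856407.
C1qb: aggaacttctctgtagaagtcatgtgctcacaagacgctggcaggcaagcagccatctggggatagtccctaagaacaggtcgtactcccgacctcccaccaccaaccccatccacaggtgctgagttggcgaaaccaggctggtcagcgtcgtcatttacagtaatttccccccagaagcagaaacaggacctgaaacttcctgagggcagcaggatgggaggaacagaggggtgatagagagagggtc
C1qc: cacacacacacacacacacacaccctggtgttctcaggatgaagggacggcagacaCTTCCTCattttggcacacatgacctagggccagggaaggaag
C3: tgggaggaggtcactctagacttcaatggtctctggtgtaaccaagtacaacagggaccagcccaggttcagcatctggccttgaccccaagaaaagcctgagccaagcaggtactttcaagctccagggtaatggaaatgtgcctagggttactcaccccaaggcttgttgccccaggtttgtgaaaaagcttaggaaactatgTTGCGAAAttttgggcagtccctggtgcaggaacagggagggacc
C3ar1: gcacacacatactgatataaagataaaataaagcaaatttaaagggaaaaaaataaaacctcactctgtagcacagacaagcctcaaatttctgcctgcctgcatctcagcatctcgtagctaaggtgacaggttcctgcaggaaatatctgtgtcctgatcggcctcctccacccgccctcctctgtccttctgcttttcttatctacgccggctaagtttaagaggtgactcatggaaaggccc

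The 5 windows, each of 300 bases from 250 before to 50 after the RefSeq start, were searched on both strands for 6 short patterns of factors that act in myeloid or inflammatory genes, whose matches were allowed to overlap. These were GAGGAAG (PU.1 core), GAAA followed after 2 bases by GAAA (interferon regulatory factor), TTCNNNGAA (STAT), GGGA followed after 2 bases by TTCC (NF-kB), TTGCNNAA (C/EBP) and TGCTGAC (Maf core). C1qc held the PU.1 core on the opposite strand, starting 194 bases before the RefSeq start (CTTCCTC), a pattern found in 13.6% of 32817 promoter windows of the same length. C3 held the C/EBP pattern starting 45 bases before its start (TTGCGAAA), found in 10.8% of windows. The other patterns are found in 3.43% (interferon regulatory factor), 8.29% (STAT), 1.47% (NF-kB) and 4.67% (Maf core) of windows and had no match in the 5. C1qb, C3ar1 and C5ar1 had no match to any of the 6.

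C1q is the recognition molecule of the classical pathway, and its subunit transcripts fell to a similar degree. In GFP, C1qa stood at 186, 201 and 188 CPM, and with Ezh2-Y726D at 95.7, 113 and 112 CPM. The fitted log2 fold change was -0.84 (standard error 0.051, edgeR adjusted P = 4.89e-13). Every Ezh2-Y726D library lay below every GFP library, and Ezh2-Y726D replicate 1 was the lowest of its group. C1qb went from 161, 185 and 186 CPM to 83.2, 103 and 95.7 CPM, a log2 fold change of -0.90 (standard error 0.059, edgeR adjusted P = 1.87e-12). C1qc went from 143, 154 and 136 CPM to 74.8, 90.9 and 90.1 CPM, a log2 fold change of -0.77 (standard error 0.057, edgeR adjusted P = 2.24e-11). In both genes the groups again did not overlap, and replicate 1 was again the lowest of Ezh2-Y726D. With any of the 6 libraries left out, the log2 fold changes of the subunits stayed between -0.99 and -0.68.

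Because all subunits are needed for the assembled protein, their proportions were compared within each library per kilobase of exon. The level of C1qb relative to C1qa was 0.824, 0.879 and 0.947 in GFP and 0.831, 0.865 and 0.817 in Ezh2-Y726D, so that the groups overlapped. For C1qc relative to C1qa the ratio was 0.414, 0.413 and 0.391 in GFP and 0.421, 0.432 and 0.433 in Ezh2-Y726D. The latter ratios did not overlap but differed by a factor of only 1.05 (2-sided exact permutation P = 0.1, the smallest that 3 libraries against 3 allow). The proteases that C1q activates changed less than C1q did. C1s1, which encodes C1s, went from 11.9 ± 1.16 to 8.59 ± 0.598 CPM (mean ± SD of 3 libraries per group), a log2 fold change of -0.44 (edgeR adjusted P = 0.00163). With counts thinned to the shallowest library its log2 fold change was -0.42, but the call was lost (adjusted P = 0.0559, within a range of 8.44e-04 to 0.934 over its alternatives). C1ra, which encodes C1r, went from 17.3 ± 1.4 to 14.1 ± 0.42 CPM, a log2 fold change of -0.27 (edgeR adjusted P = 0.0163). The call for C1ra was lost without GFP replicate 2 (log2 fold change -0.22, adjusted P = 0.0802) or Ezh2-Y726D replicate 3 (-0.25, adjusted P = 0.0677). It was also lost with DESeq2 (-0.28, adjusted P = 0.0637) and with thinned counts (-0.27, adjusted P = 0.135). Over all alternatives for C1ra the edgeR or DESeq2 adjusted P ran from 0.00957 to 0.658.

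C4b, whose product is cleaved by C1s to form part of the convertase, differed from the C1q genes. It was at 293, 291 and 294 CPM in GFP and at 336, 307 and 303 CPM in Ezh2-Y726D. All Ezh2-Y726D libraries were thus above all GFP libraries, which held for 19.7% of all genes, but the log2 fold change was only 0.11 with a standard error of 0.043, short of the threshold (edgeR adjusted P = 0.0615). The adjusted P ran from 0.0172 to 0.42 over the alternatives. It fell under 0.05 when each library was required to hold 10 counts (0.0456), with no filter (0.02), with a replicate block (0.0172) or without Ezh2-Y726D replicate 3 (0.0366). Without Ezh2-Y726D replicate 1 the log2 fold change was 0.06 (edgeR adjusted P = 0.389). Per kilobase, C4b was 0.287, 0.264 and 0.286 of C1qa in GFP and 0.642, 0.494 and 0.493 of it in Ezh2-Y726D. This ratio did not overlap between the groups (2-sided exact permutation P = 0.1). Of the 50-base stretches of C4b transcripts, 34.6% also occur in its near copy C4a, and the sources used here do not state how reads that fit both were counted. C4a itself was at 1.28 ± 0.25 CPM in GFP and 1.27 ± 0.202 CPM in Ezh2-Y726D, and summing both genes left the log2 fold change at 0.11.

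C2, the protease partner of C4, was measured with 6 to 24 counts per library. Its level was 0.737, 0.903 and 0.995 CPM in GFP and 0.864, 0.539 and 0.813 CPM in Ezh2-Y726D. The groups overlapped, and the log2 fold change of -0.11 had a standard error of 0.34 (edgeR adjusted P = 0.867), so that a difference was not detectable at this depth. Its direction changed without Ezh2-Y726D replicate 2, where the log2 fold change was 0.04. Of its exonic bases, 46.9% overlap Gm20547 or Zbtb12, which makes its count uncertain.

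C3 fell further than the C1q subunits in the fitted values. It was at 171, 180 and 180 CPM in GFP and at 93.9, 89.6 and 83.0 CPM in Ezh2-Y726D, where its log2 fold change was -0.99 (standard error 0.045, edgeR adjusted P = 2.2e-15). The groups did not overlap, and the estimate stayed between -1.03 and -0.94 with any library left out. Relative to C1qa per kilobase, C3 was at 0.186, 0.181 and 0.194 in GFP and at 0.199, 0.16 and 0.15 in Ezh2-Y726D, which overlapped (2-sided exact permutation P = 0.4). C4b, by contrast, was at 1.55, 1.46 and 1.47 relative to C3 in GFP and at 3.24, 3.09 and 3.29 in Ezh2-Y726D, so that this ratio of transcript levels per kilobase differed by a factor of 2.15 (2-sided exact permutation P = 0.1, the smallest possible).

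The other alternative pathway genes were far below C3 in level. Cfb was at 0.561, 0.645 and 0.829 CPM in GFP and at 0.301, 0.539 and 0.203 CPM in Ezh2-Y726D, with 5 to 16 counts per library. All Ezh2-Y726D values were below all GFP values, which held for 18.9% of all genes, but the log2 fold change of -0.91 (standard error 0.43) did not pass (edgeR adjusted P = 0.131). As 79.5% of the exonic bases of Cfb overlap Gm20547, a transcript that runs through C2 and Cfb, its count is uncertain. With the counts of C2 and Cfb summed, the log2 fold change was -0.41 (edgeR adjusted P = 0.293). Properdin, which stabilises the alternative convertase and is encoded by Cfp, fell from 11.9 ± 1.16 to 8.9 ± 0.238 CPM (mean ± SD of 3 libraries per group). Its log2 fold change was -0.46 (edgeR adjusted P = 5.29e-04). With counts thinned to the depth of the shallowest library it was -0.26 and the call was lost (adjusted P = 0.285, within a range of 2.07e-04 to 0.934 over its alternatives).

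Of the receptors, C3ar1 showed the largest fitted change among the 9 genes. It was at 39.6, 43.1 and 49.3 CPM in GFP and at 13.9, 19.5 and 17.4 CPM in Ezh2-Y726D, without overlap. The log2 fold change was -1.34 (standard error 0.088, edgeR adjusted P = 1.97e-12), which left 39.4% of the GFP level, and it lay between -1.45 and -1.21 with any library left out. Set against C1qa within each library, C3ar1 was lower as well. Per kilobase the ratio was 0.0514, 0.0517 and 0.0634 in GFP and 0.0351, 0.0416 and 0.0375 in Ezh2-Y726D, again without overlap (2-sided exact permutation P = 0.1, the smallest possible).

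C5ar1, the receptor for C5a, had 13 to 78 counts per library. It was at 2.74, 3.22 and 2.16 CPM in GFP and at 1.54, 2.30 and 1.66 CPM in Ezh2-Y726D. The highest Ezh2-Y726D library exceeded the lowest GFP library, so that the groups overlapped, and the log2 fold change was -0.60 (standard error 0.22, edgeR adjusted P = 0.0388). This call was not stable. It was lost without GFP replicate 1 (adjusted P = 0.171), GFP replicate 2 (0.112), Ezh2-Y726D replicate 1 (0.129) or Ezh2-Y726D replicate 3 (0.125), and with DESeq2 (0.16). In these fits the log2 fold change was still between -0.61 and -0.50, whereas with library totals it was -0.13. Over all alternatives the adjusted P ran from 0.0174 to 0.811. C3ar1 kept its call with DESeq2 and with any library left out, but like C5ar1 lost it with library totals (adjusted P = 0.385).

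**Figure D2:**
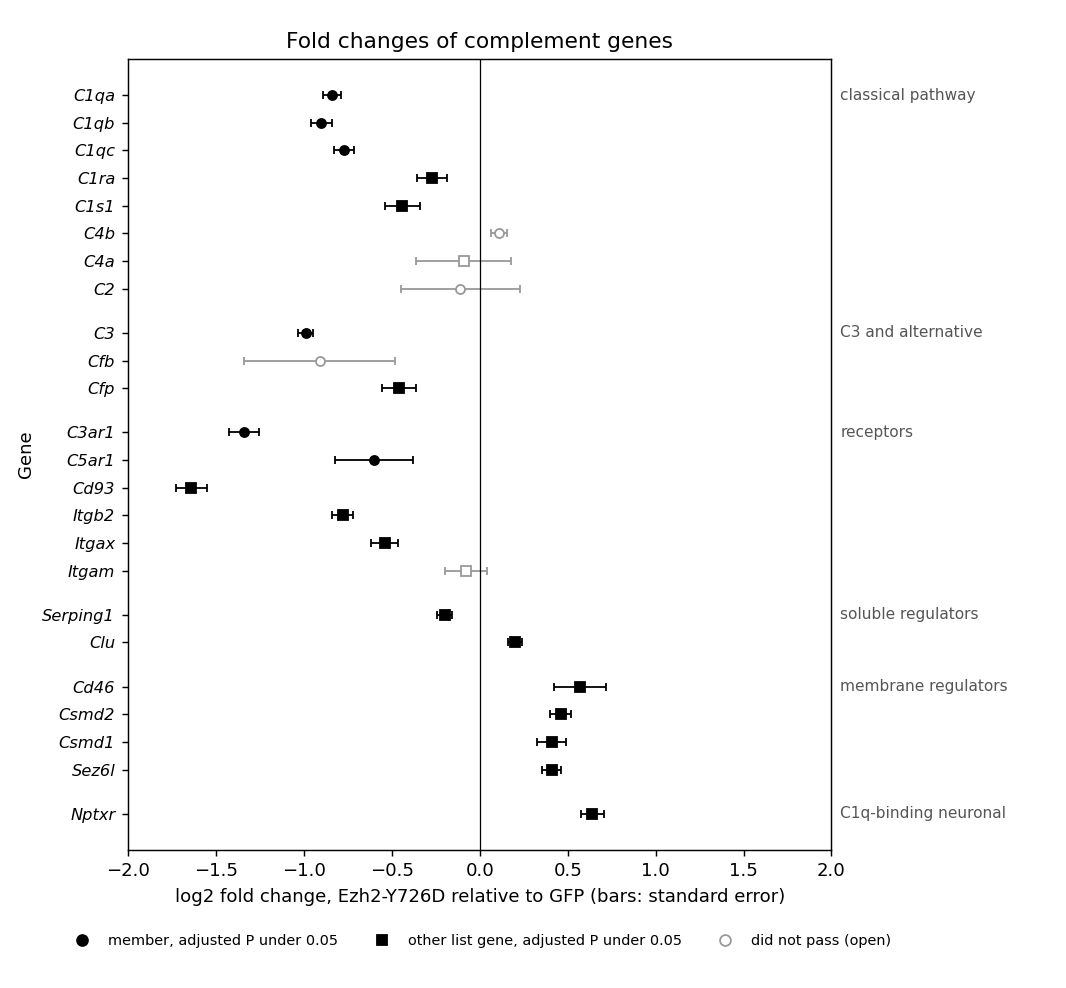
Log2 fold change of Ezh2-Y726D relative to GFP for the 9 genes (circles) and the other complement genes named in the text (squares), with standard errors from edgeR. Filled symbols passed an adjusted P of 0.05 and open symbols did not. C1q, C3 and the receptors C3ar1, Cd93 and Itgb2 lie between -1.64 and -0.77, whereas Cd46, Csmd2, Csmd1, Sez6l and Nptxr lie between 0.41 and 0.64.

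Per kilobase of exon, the order of mean levels in GFP was C1qa, C1qb, C1qc, C4b, C3, C3ar1, C5ar1, Cfb and C2, from 184 to 0.227 CPM per kilobase. Of the neighbours in this order, Cfb and C2 had overlapping values. In Ezh2-Y726D, C4b at 55.4 CPM per kilobase stood above C1qc at 44.2, and C2 above Cfb. There the ranges of C1qa and C1qb overlapped, as did those of C2 and Cfb. These levels depend on the annotated exon lengths, of which that of C1qc, at 1.93 kb, is longer than those of C1qa and C1qb, at 1.04 and 1.09 kb.

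Markers of myeloid cells were lower in the same libraries. The counts that follow stand against 13.6% of all genes that fell and 13.9% that rose in edgeR at the same threshold. All 10 pan-myeloid genes followed (such as Csf1r, Aif1 and Tyrobp) were lower, and their summed level was 1020 to 1140 CPM in GFP and 566 to 672 CPM in Ezh2-Y726D. Of 10 genes of monocytes and macrophages, the 9 tested were all lower, with sums of 599 to 663 and 155 to 189 CPM, and Cd163 had at most 2 counts in any library. The 10 homeostatic microglia genes were mixed, with 4 lower, 2 higher and 4 that did not pass, and sums of 297 to 327 and 244 to 288 CPM. Their defining genes were all detected. Among 9 tested genes of Müller glia and astrocytes 4 were lower and 1 higher, and all 6 T cell genes were lower, with sums of 89.5 to 92.0 and 49.3 to 56.9 CPM. The 5 neutrophil genes in the table summed to at most 0.829 CPM in any library. The part of these differences in the complement results was not tested.

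Relative to the summed pan-myeloid genes of the same library, C1q levels were close between the groups. C1qa was at 18.3, 17.6 and 17.1% of this sum in GFP and at 16.9, 17.3 and 16.7% in Ezh2-Y726D. C1qc was at 14.1, 13.5 and 12.5% and at 13.2, 13.9 and 13.4%, so that both genes overlapped between the groups. C1qb was at 15.8, 16.2 and 17% in GFP and slightly lower in Ezh2-Y726D, at 14.7, 15.6 and 14.3%. C3 also overlapped, with 15.7 to 16.8% in GFP and 12.4 to 16.6% in Ezh2-Y726D. C3ar1 did not, and went from 3.90, 3.77 and 4.5% to 2.46, 2.97 and 2.59%. C4b moved the other way, from 28.9, 25.4 and 26.8% to 59.4, 46.8 and 45.0%.

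The choice of reference mattered. Relative to the summed homeostatic microglia genes, C1qa was at 62.7, 61.5 and 58.6% in GFP and at 39.2, 40.7 and 38.9% in Ezh2-Y726D, without overlap. C1qb, C1qc, C3 and C3ar1 were also lower without overlap on this scale, and C3ar1 was at 14 ± 1.23% in GFP and 6.25 ± 0.678% in Ezh2-Y726D (SD, n = 3 libraries each). C4b was higher on it, at 93.2 ± 5.03% and 118 ± 17.7%. Relative to the Müller glia and astrocyte genes, C4b was at 5.31, 5.42 and 5.15% in GFP and at 6.35, 6.08 and 5.95% in Ezh2-Y726D, also higher but by a factor of only 1.16, on a sum that was itself lower in Ezh2-Y726D.

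**Figure D3:**
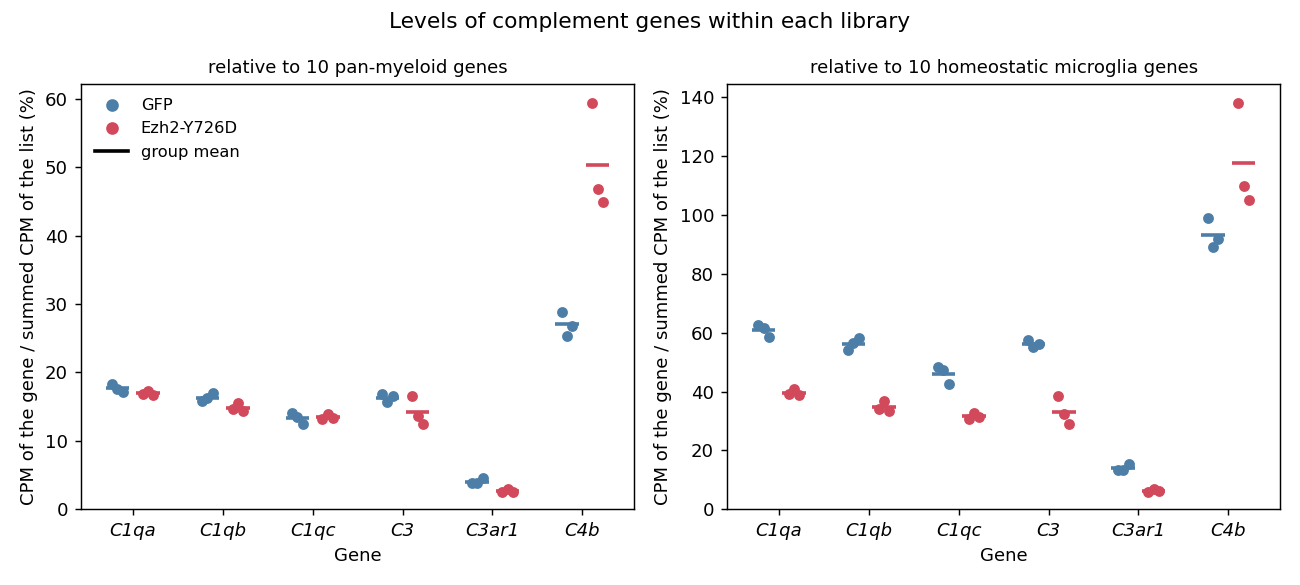
CPM of 6 complement genes as a percentage of the summed CPM of 10 pan-myeloid genes (left) or 10 homeostatic microglia genes (right) in the same library. Points are libraries and lines are group means. C1qa lies at 16.7 to 18.3% of the pan-myeloid sum in both groups, C3ar1 is lower in Ezh2-Y726D on both scales and C4b is higher on both.

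The remaining genes of the system came from lists of 8 roles with 63 genes in all, of which 54 are outside the 9 genes. Of these 54, 47 were in the table and 34 were tested, and 9 fell, 9 rose and 16 did not pass in edgeR, with a median log2 fold change of -0.05, where 13.6% of all genes fell and 13.9% rose. Calls differed in number between the roles. Of the 8 tested receptor genes, C3ar1 and C5ar1 included, 5 fell and the other 3 did not pass in edgeR, and of the 11 tested membrane regulators 1 fell and 7 rose. The same shares over all genes apply to these counts. Over all the lists, 15 of 43 tested genes fell and 9 rose, and without GFP replicates 2 and 3 it was 12 and 8 of 45, where 10.7% of all genes fell and 10.7% rose.

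Among the other receptors, Cd93, which encodes a lectin-like membrane protein first described as a C1q receptor, fell from 23.4 ± 0.612 to 7.39 ± 0.561 CPM (mean ± SD of 3 libraries per group). Its log2 fold change of -1.64 (standard error 0.087, edgeR adjusted P = 3.61e-14) was larger in size than that of C3ar1. Itgb2, the shared beta chain of complement receptors 3 and 4, fell from 64.6 ± 3.17 to 37.1 ± 2.63 CPM, a log2 fold change of -0.78 (edgeR adjusted P = 4.1e-11). Itgax, the alpha chain of complement receptor 4, had a log2 fold change of -0.54 (edgeR adjusted P = 2.63e-06). Itgam, the alpha chain of complement receptor 3, was singled out after its values were seen. It was at 7.26, 8.77 and 9.79 CPM in GFP and at 6.84, 7.74 and 8.24 CPM in Ezh2-Y726D, which overlapped (log2 fold change -0.08, edgeR adjusted P = 0.693). Of its exonic bases, 68.7% overlap Gm49368 on the same strand, which makes its count uncertain.

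The regulators were more divided. Serping1, which encodes the C1 inhibitor, fell from 156 ± 10.7 to 136 ± 3.82 CPM (mean ± SD of 3 libraries per group), a log2 fold change of -0.20 (edgeR adjusted P = 9.73e-04). Clu, which encodes clusterin, an inhibitor of the membrane attack complex, rose from 2300 ± 86.8 to 2640 ± 72.5 CPM, a log2 fold change of 0.20 (edgeR adjusted P = 2.72e-04). Neither change reached 1.5-fold, and with scaling by library totals, which moved the median of all genes to 0.49, Serping1 (0.30), C1s1 (0.04), C1ra (0.22) and Cfp (0.04) turned positive but stayed below that median.

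The membrane regulators that rose were Cd46 and genes of the Csmd and Sez6 families, which encode neuronal proteins with complement control domains. Of the other tested membrane regulators, 1 fell and 3 did not pass. Cd46 went from 4.27 ± 1.06 to 6.3 ± 0.667 CPM (mean ± SD of 3 libraries per group), with a log2 fold change of 0.57 (edgeR adjusted P = 0.00451), and lost its call without GFP replicate 1 (adjusted P = 0.102, within a range of 9.89e-04 to 0.294 over its alternatives). Csmd2 rose from 29.7 ± 0.844 to 41.4 ± 1.23 CPM, a log2 fold change of 0.46 (edgeR adjusted P = 5.59e-07). Csmd1 and Sez6l each had a log2 fold change of 0.41 (edgeR adjusted P = 3.65e-04 and 8.75e-07). Nptxr, which encodes the neuronal pentraxin receptor, rose from 31.4 ± 2.53 to 49.7 ± 3.08 CPM, a log2 fold change of 0.64 (edgeR adjusted P = 6.39e-09), and was the gene that rose among 4 genes of C1q-binding neuronal proteins. In the same libraries 6 of 7 tested amacrine cell genes rose, against 13.9% of all genes, with sums of 933 to 1010 CPM in GFP and 1450 to 1500 CPM in Ezh2-Y726D, and their part in these rises was not tested.

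Few genes of the lectin and terminal pathways had enough counts to be tested. Of 8 lectin pathway genes 3 were tested and did not pass in edgeR, with log2 fold changes of -0.30 to 0.09, and the summed level of the list was at most 5.12 CPM in any library. Most of it was Colec10, which encodes a collectin, at 2.41 CPM in GFP and 2.42 CPM in Ezh2-Y726D on average. Of the 7 genes of the terminal pathway, which assembles the membrane attack complex, 1 was tested and did not pass. In GFP, Hc, C6, C7, C8a and C8b had no more than 3 counts in any library, and in Ezh2-Y726D they had at most 9. A count of 3 corresponds to 0.102 to 0.498 CPM depending on the library.

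The genes whose levels followed C1q most closely were sought by the root mean square difference between centred log2 CPM profiles over the 6 libraries. Outside the 9 genes, Gimap4 (0.022), H2-Aa (0.033), Fyb (0.036), Tnfrsf18 (0.038) and Ncf1 (0.044) were nearest to the mean profile of C1qa, C1qb and C1qc. For C3 the nearest were Irf7 (0.058), Hist1h2bn (0.060), Gsg1 (0.060), Arhgap9 (0.066) and H2-T24 (0.071). By the same measure C3 lay 0.15 from the C1q profile, C3ar1 0.29 and C4b 0.49. As the profiles consist of 2 groups of 3 libraries, the measure reflects mainly the size of the group difference.

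**Figure D4:**
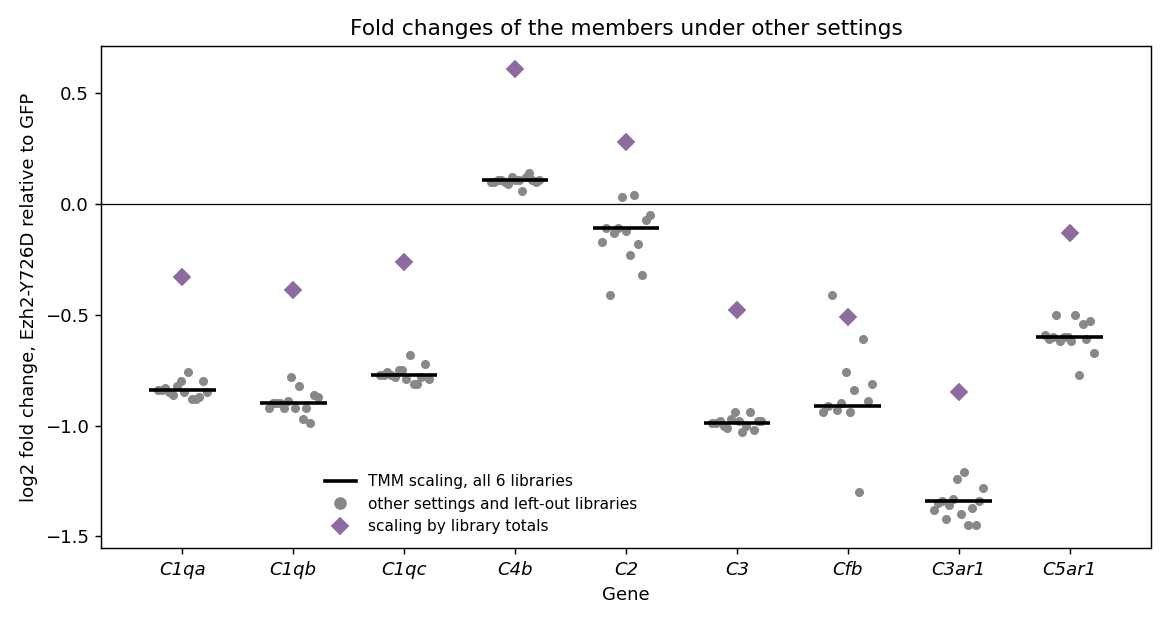
Log2 fold change of each of the 9 genes under the other settings and with libraries left out (grey points), with scaling by library totals (diamonds), and with TMM scaling of all 6 libraries (black lines). Most settings leave the values of C1qa, C1qb, C1qc, C3, C3ar1 and C4b close to the black lines, and library totals move all 9 upward, C4b to 0.61 and C3ar1 to -0.85.

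Scaling was the choice that moved all 9 genes together. With library totals in place of TMM, where the median of all genes moved to 0.49, the log2 fold changes of C1qa, C1qb, C1qc, C3 and C3ar1 were -0.33, -0.39, -0.26, -0.48 and -0.85, and 0 of the 9 genes passed in either direction in edgeR (1 was lower and 0 higher at an unadjusted P under 0.05). Under this scaling 65 of all genes passed, of which 29.2% were lower, against 49.4% of the calls with TMM. Relative to the median of all genes, the 5 genes stayed below and C4b, at 0.61, stayed above. With totals that leave out CT010467.1 the same 5 genes were between -1.36 and -0.78, with a median of -0.02 over all genes.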

How the data were processed

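RNA was measured by RNA-Seq in 3 GFP and 3 Ezh2-Y726D libraries, grouped by the sample titles. The authors deposited raw counts of reads per Ensembl gene. Per the labels, a stranded kit for total RNA was used, and the submitters' processing notes name STAR 2.7.0d and GRCm38. The counting tool, the annotation, the read filters and the use of strand are not given in the sources used here. Of 32371 identifiers, 32325 matched a symbol and 32342 GENCODE vM21.

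The deposited counts were scaled by TMM, filtered by filterByExpr (minimum count 10, total 15) and tested in R 4.3.3 with edgeR 4.0.16 (glmQLFit and glmQLFTest, group as the only term). Calls used an adjusted P under 0.05, and the study's fold change of 1.5 where stated. Standard errors were the log2 fold change divided by the root of F. Pattern distances used log2 CPM with a prior count of 2. Alternatives were RLE factors, library totals with and without CT010467.1, DESeq2 1.42.0, other filters, a replicate block and each library left out. Leaving out both rRNA-rich GFP libraries, thinning counts, and summing C4b with C4a or C2 with Cfb were added after seeing the data. Members and lists were chosen with earlier results of these data known. The named genes were the 9 members, Ezh2, C4a, up to 4 genes per complement list with the largest change among those that passed, and the 5 nearest profiles. A list gene that the rule would name is not reported here. Every pair of libraries differed by more than counting noise, with a chi-square per degree of freedom of at least 1.53.

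In simulated counts for 18138 genes, 162 of 200 genes changed by 1 on the log2 scale were recovered (81%), with 15 unchanged genes called. The simulation changed 200 genes, against 4988 called in the data, and gave no separate figure for rRNA-rich libraries. Its recovery and false calls therefore need not hold for the comparison of Ezh2-Y726D with GFP.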

Additional observations from a re-analysis of the deposited data

How the results depend on the processing

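Of 356 alternative values for 24 complement genes named, 310 kept their direction and their side of the threshold, 30 kept the direction and no longer passed, 4 kept it and newly passed, and 12 changed direction. With library totals, 65 genes in all passed, 0 of the 9 genes and 0 of the 43 list genes tested fell, and 0 list genes rose in edgeR (1, 2 and 7 at an unadjusted P under 0.05). The log2 fold changes of C2 (0.28), C1s1 (0.04), C1ra (0.22), Cfp (0.04), Serping1 (0.30), C4a (0.36) and Itgam (0.37) then turned positive, against a median of 0.49 over all genes. With a fold change over 1.5 required, 1455 genes passed, and 8 list genes fell and 1 rose. The number of the 9 genes that rose went from 0 to 1, C4b, with no filter, with at least 10 counts in every library and with the replicate block, and it was 0 to 1 with a library left out. Without both rRNA-rich GFP libraries, C2 (0.03) and Itgam (0.07) were slightly positive. The replicate numbers were not taken as pairs in the main fit. The correlations of same-numbered deviations were 0.0723, 0.0342 and 0.0238, which cannot show whether same-numbered libraries were prepared together. The replicate block gave 5222 genes against 4988 and a log2 fold change of 0 for C4a. With a library left out, that of C2 ran from -0.32 to 0.04 and that of C4a from -0.22 to 0.05. The cause of these shifts was not tested. Depth limits C2, Cfb and C5ar1 most, with 5 to 78 counts per library.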
